A study of Mus musculus with 20 samples.

Results

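Corneal epithelium of 18-month-old mice was compared with that of young mice across all genes expressed above a minimum level. The members of the comparison were the 11329 genes, of 24552 in the deposited tables, whose normalized counts averaged 10 or more over the 10 libraries of both groups. All mice were wild-type female C57BL/6J animals that were naïve, that is, neither injured nor treated, and each library held the scraped epithelium of 1 mouse. The 5 young libraries came from mice labelled 2 to 3 months old and the 5 18-month libraries from mice labelled 18 to 19 months old, out of 20 libraries at 4 ages. A normalized count is the read count of a gene divided by the size factor of its library. Reads were taken from the 3′ end of transcripts, so that the read count of a gene depends little on transcript length. The study obtained mice from a commercial breeder or from an aging colony, or aged them in house. The labels used here do not give which source each mouse had, so source and age cannot be told apart.

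The corneal epithelium is a stratified, transparent sheet that is renewed from stem cells at the limbus, the rim where the cornea meets the conjunctiva. Its cells make the keratins KRT12 and KRT5 and are packed with soluble enzymes such as aldehyde dehydrogenases, which absorb ultraviolet light. The collagen-rich stroma below is made by keratocytes, and the surface is bathed in tear fluid from the lacrimal and meibomian glands. The cell cycle inhibitor p16, a product of *Cdkn2a*, is widely used as a marker of senescent cells in aging tissues.

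The libraries held 7899145 to 10762360 reads in the young group and 6821611 to 10559825 reads in the 18-month group, with medians of 8792912 and 8921151. The defining markers of corneal epithelium were abundant at both ages. *Krt12*, the cornea-specific keratin, averaged 255500 ± 30300 normalized counts (SD over 5 libraries) in young mice and 238800 ± 14500 at 18 months. *Pax6*, the master regulator of eye development, had 4702 ± 744 and 4966 ± 335. On the 500 most variable genes, 18-month replicate 2 lay farthest from the other libraries of its own group, with a mean correlation distance of 1.119 against 0.899 to 1.004 for the other 9. Young replicate 4 stood out by a high level of gland transcripts and a low level of keratocyte transcripts. How far calls depended on single libraries, or on these 2 together, is given below.

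Between the ages, 76 of the 11329 genes (0.671%) were differentially expressed genes (DEGs), of which 38 rose (0.335%) and 38 fell (0.335%). Without adjustment, *P* was below 0.05 for 824 genes (7.27%). With voom on the recovered reads, 62 genes (0.547%) were called, 58 of them among the 76. To be called a DEG, a gene needed a limma *P* value that stayed at or below 0.05 after Benjamini-Hochberg adjustment over all genes tested, and a change of at least 1.2-fold. The falls were the larger changes, with a median log2 fold change of −2.37 against 1.00 for the rises. There were 22 genes that fell and 5 that rose by more than 4-fold. The median over all genes tested was −0.002. Fold changes are differences in mean log2(normalized count + 1), which understate the change of genes with few reads. The 5 libraries of one age lay wholly above or below the 5 of the other for 65 of the 76 DEGs, against 2.07% of all genes tested (1.03% higher and 1.03% lower). With 5 libraries in each group, the smallest two-sided exact permutation *P* value is 0.00794, and all DEGs without overlap reached it. The DEGs were chosen by the contrast between these same libraries, so their lack of overlap and these *P* values are no separate support. Leaving out 1 library at a time gave 61 to 69 DEGs, and 49 of the 76 were called in all 10 of those fits. Without both young replicate 4 and 18-month replicate 2, 56 of the 76 were still called.

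**Figure D1:**
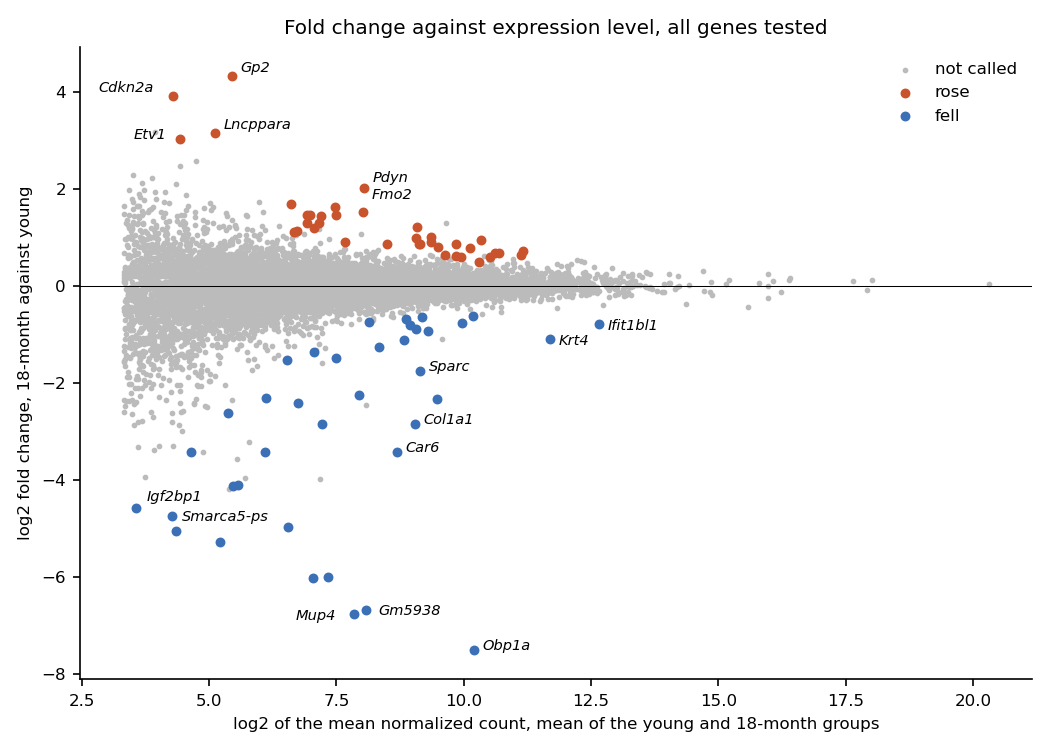
Log2 fold change at 18 months against the young group (vertical axis) by log2 of the mean normalized count (horizontal axis), 1 point per gene for the 11329 genes tested. Coloured points are the 38 DEGs that rose and the 38 that fell. The falls reach −7.52 (*Obp1a*), the rises 4.33 (*Gp2*).

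**Figure D2:**
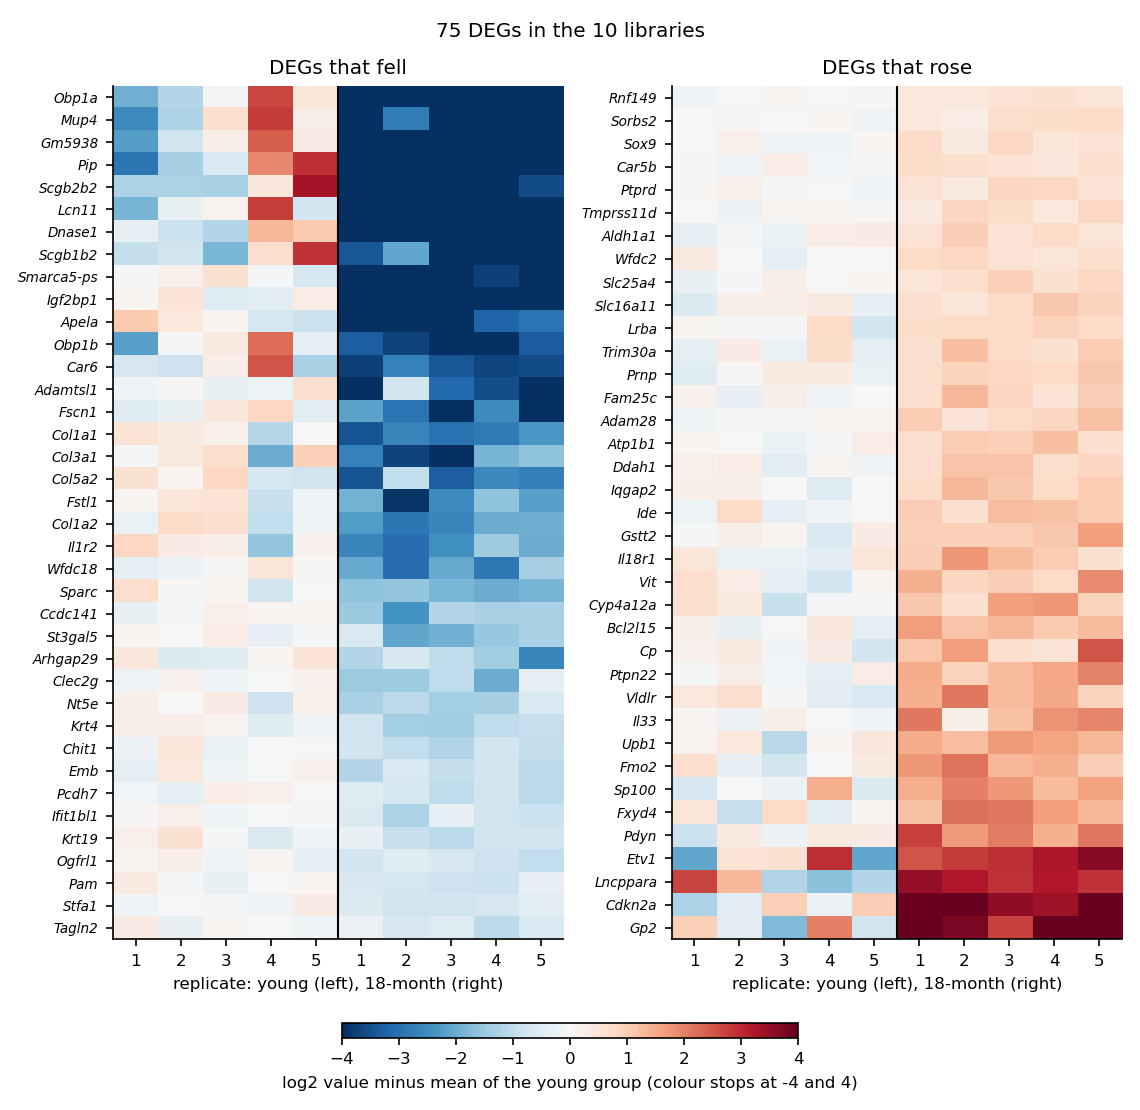
Colour map of 75 of the 76 DEGs (rows) in the 5 young and 5 18-month libraries (columns), as the log2 value minus the mean of the young group. The rows were chosen by the contrast between the 2 groups. Among the young libraries, most gland genes are highest in replicate 4 or 5.

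The largest falls were in genes of secretory glands. Of 16 tested genes of the gland and tear list, 11 fell and 0 rose (68.8% called, against 0.671% of all genes tested). The median log2 fold change was −4.54 (−3.94 with genes at 0 reads set to their bound). The share of 0.671% is the background for the counts of every list below. The lists were chosen with earlier results of these data known, so a higher share is no test of a list. The minimum for testing was a mean of 10 over both groups. *Lcn11* and *Dnase1*, with 0 reads at 18 months, passed it through the young libraries alone. *Mup4*, *Gm5938*, *Pip*, *Scgb2b2*, *Scgb1b2* and *Obp1b* averaged 1.01 to 6.10 at 18 months, so they too passed it only through their young values. Genes of the list that are high in young mice were thus favoured among those tested. Another 18 genes of the list were below the minimum, so the count and the median describe the tested genes and not the whole list. The 11 genes encode carriers of small lipids and odorants (*Obp1a*, *Obp1b*, *Gm5938*, *Mup4*, *Lcn11*), secretoglobins (*Scgb1b2*, *Scgb2b2*), and other proteins secreted into tears, saliva or milk (*Pip*, *Dnase1*, *Car6*, *Wfdc18*). Some of them lie in clusters of related copies, and the sequences next to the starts of 5 are shown because these genes fell together and 4 of the 5 hold a TATA box motif. Below are the 60 bases before the transcription start in RefSeq (GRCm38.p6), 5′ to 3′ on the strand of the gene, with the letters TATAAA in capitals where they occur.

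*Obp1a* (chrX:78091375-78091434, minus strand): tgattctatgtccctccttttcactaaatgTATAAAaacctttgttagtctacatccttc

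*Gm5938* (chrX:78125407-78125466, plus strand): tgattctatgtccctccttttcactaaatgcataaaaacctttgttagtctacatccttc

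*Mup4* (chr4:59960668-59960727, minus strand): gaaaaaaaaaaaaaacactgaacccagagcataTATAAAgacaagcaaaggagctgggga

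*Pip* (chr6:41847489-41847548, plus strand): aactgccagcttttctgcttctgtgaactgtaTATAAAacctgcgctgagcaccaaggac

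*Scgb1b2* (chr7:31291817-31291876, minus strand): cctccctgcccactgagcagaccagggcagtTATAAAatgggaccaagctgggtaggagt

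The *Obp1a* and *Gm5938* stretches were identical at 59 of 60 bases, and over 250 bases at 92.4%. *Obp1a* and *Obp1b* shared 15.0% over the 60 bases. *Obp1a*, *Gm5938* and *Obp1b* lie within a stretch of the X chromosome with gaps of 34.1 kb and 56.4 kb, and *Scgb1b2* and *Scgb2b2* lie 10953 bases apart on chromosome 7. Transcript sequences were not compared here, so the values of these related copies are uncertain where their transcripts share sequence. The letters TATAAA, the core of the TATA box, stood on the sense strand within these 60 bases in 5 of the 12 promoters of the 11 gland genes (41.7%). They stood there in 12 of the 80 promoters found for DEGs (15.0%), gland genes included, and in 2.87% of all 32851 promoters. A match of letters is a description and not a site in use.

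*Obp1a*, an odorant-binding lipocalin, had normalized counts of 328, 549, 1183, 7831 and 1724 in young replicates 1 to 5 and of 4.88, 73.9, 0.794, 8.06 and 0.967 in the 18-month replicates. Young replicate 4 was the highest by far, 18-month replicate 2 the highest at its age, and the groups did not overlap. The log2 fold change was −7.52 (SE 1.02, adjusted *P* = 0.000118 by limma). *Gm5938* had 66.9, 182, 364, 1677 and 394 in the young libraries and 0, 3.52, 2.38, 0.896 and 7.74 at 18 months (log2 fold change −6.69, SE 0.88). *Mup4*, a major urinary protein gene, had 36.2, 92.2, 347, 1522 and 263 in the young libraries. At 18 months it had 30.5 in replicate 2 and 0 reads in the other 4, so 1 library held all of its reads at that age.

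*Pip*, the prolactin-induced protein of tears and saliva, had 13.2, 40.5, 67.6, 392 and 799 in the young libraries and 0, 1.17, 0, 0 and 3.87 at 18 months. *Scgb2b2*, one chain of an androgen-binding protein, had 52.6, 52.5, 51.1, 173 and 1283 against 0, 0, 0, 1.79 and 9.67, a log2 fold change of −6.01. For both of these genes the highest young library was replicate 5 rather than 4. *Bpifa2*, a salivary protein gene, was still more uneven, at 2653 in young replicate 5 and at most 11.7 in the other young libraries, and was not called (log2 fold change −2.45, adjusted *P* = 0.823 by limma).

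*Lcn11*, a lipocalin, had 9.87 to 266 in the young group and *Dnase1*, a secreted endonuclease, 13.7 to 81.6. Both had 0 reads in the 5 18-month libraries. Against a floor of 3 reads per library, *Lcn11* was at least 24.5-fold lower and *Dnase1* at least 13.5-fold lower. The *Lcn11* call was lost without young replicate 3 or 4 (adjusted *P* up to 0.113) and that of *Dnase1* without young replicate 1, 4 or 5 (up to 0.108). *Scgb1b2* fell by 4.98 on the log2 scale and kept its call in 5 of the 10 fits that left out 1 library, with an adjusted *P* of 0.113 without young replicate 5. *Obp1b* fell by 4.11 and kept it in 2 of them, with 0.204 without young replicate 4.

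*Wfdc18*, which encodes a whey acidic protein of mammary and lacrimal gland, was the most even of the gland genes. Its normalized counts were 308, 336, 410, 553 and 407 in the young libraries and 96.4, 46.9, 96.9, 53.8 and 157 at 18 months, a ratio of means of 4.47 (log2 fold change −2.25, SE 0.446, adjusted *P* = 0.00674 by limma). *Car6*, the secreted carbonic anhydrase of saliva and tears, had 285, 253, 548, 2626 and 185 against 32.9, 69.2, 41.3, 34.9 and 36.8, so that the lowest young library was still well above the highest 18-month library. Unlike the other 9 genes of the group, *Wfdc18* and *Car6* were also called by voom on the recovered reads.

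Together, the 11 genes took 27530 reads in the young group and 851 at 18 months. Young replicate 4 held 53.3% of the young reads and replicate 5 held 22.4%. Even the lowest young library, replicate 1 with 1078 reads, was above the highest 18-month library, replicate 5 with 228. The 11 genes were chosen by their fall in these same libraries, so the separation of their sums is no further evidence. The summed normalized count of the whole gland list, *Aqp5* included, overlapped between the ages. It was 16290 to 32300 in the young group and 16290 to 18340 at 18 months. Of the 11 genes, 7 were called in all 10 fits that left out 1 library, and 7 without both young replicate 4 and 18-month replicate 2. With voom, 9 of the 11 were not called (adjusted *P* 0.0779 to 0.62). In bulk tissue, fewer cells of a type and less RNA per cell cannot be told apart, and how much gland or tear material each scrape took up was not tested. *Aqp5*, a water channel of both lacrimal gland and corneal epithelium, had 16750 ± 1890 and 17370 ± 764 and was not called.

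**Figure D3:**
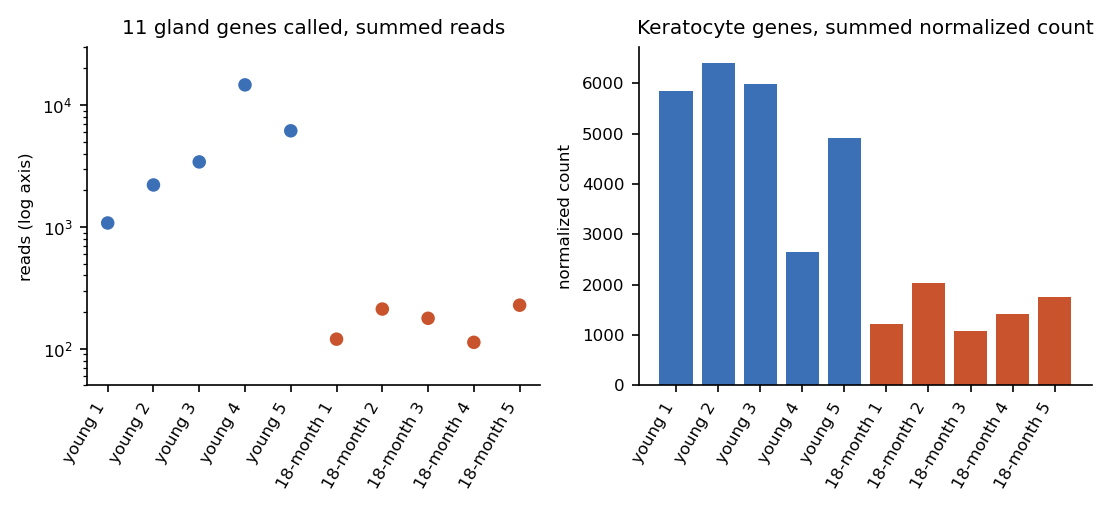
Left, reads of the 11 gland genes that fell, summed per library, on a log axis, 1 point per library. Right, normalized counts of the 21 keratocyte genes, summed per library, on a linear axis. Young replicate 4 has the most gland reads (14665) and the lowest keratocyte sum of the young group (2644). The lowest young value is above the highest 18-month value in both panels. The genes of the left panel were chosen by their fall in these same libraries.

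Fibrillar collagen genes were among the other genes that fell. Collagens I, III and V are the fibril-forming collagens of the stroma, and collagens IV and VII belong to the basement membrane zone under the epithelium. Of 21 collagen genes tested, 4 fell, 0 rose and 17 were not called (19.0% called, against 0.671% of all genes tested). The median log2 fold change was −1.43, and 19 of the 21 had a value below 0. At a stricter minimum mean of 50 normalized counts, the median of the collagens left was −0.50.

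*Col1a1*, one chain of collagen I, had normalized counts of 1255, 1118, 991, 396 and 882 in the young libraries and 78.1, 136, 109, 120 and 173 at 18 months. The groups did not overlap, and the ratio of means was 7.54 (log2 fold change −2.85, SE 0.303, adjusted *P* = 5.13e-06 by limma). *Col1a2*, the other chain, had 916, 1851, 1722, 550 and 979 against 234, 148, 173, 276 and 284 (log2 fold change −2.34, SE 0.315). In both genes the lowest young library was replicate 4. Both were called in all 10 fits that left out 1 library and by voom.

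*Col3a1*, the single chain of collagen III, had 200.6, 278, 348, 53.0 and 416 in the young libraries and 31.7, 15.3, 9.53, 57.3 and 68.7 at 18 months. Its groups overlapped through young replicate 4, which lay below 2 of the 18-month libraries. *Col5a2*, a chain of collagen V that regulates fibril width, had 97.6, 68.2, 113, 39.2 and 36.1 against 4.88, 31.7, 5.56, 9.86 and 8.70. It lies 24.6 kb from *Col3a1* on chromosome 1 (chr1:45374331-45503282). The call of *Col3a1* was kept in 4 of the 10 fits that left out 1 library, with the highest adjusted *P* (0.118) without young replicate 5. That of *Col5a2* was kept in 3 of them, with the highest (0.109) without young replicate 3. *Col3a1* was not called by voom (adjusted *P* = 0.0506). *Col6a1*, a chain of the beaded-filament collagen VI, had 88.8, 63.0, 51.1, 13.8 and 44.6 against 1.22, 23.5, 7.94, 0 and 1.93 and just missed the threshold (log2 fold change −3.42, adjusted *P* = 0.053 by limma).

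Of 29 matrix protein genes other than collagens, 2 fell and 1 rose (10.3%, against 0.671% of all genes tested). Their median log2 fold change was −0.66. *Sparc*, a collagen-binding glycoprotein, had 1369, 867, 878, 476 and 822 in the young libraries and 271, 289, 235, 212 and 232 at 18 months, without overlap (log2 fold change −1.76, SE 0.206). The 18-month libraries lay close together, and young replicate 4 was again the lowest of its group. *Fstl1*, a secreted glycoprotein of mesenchymal cells, had 179, 236, 248, 90.1 and 146 against 45.1, 10.6, 28.6, 54.7 and 36.8 (log2 fold change −2.41). *Vit*, a matrix protein first found in the vitreous, rose from 81.2 ± 30.5 to 184 ± 64.4 and kept its call in 6 of the 10 fits that left out 1 library (adjusted *P* up to 0.0962, without 18-month replicate 5). *Dcn*, the small proteoglycan decorin, had 1022 ± 250 and 494 ± 210 and was not called (adjusted *P* = 0.0959 by limma). *Mmp2*, a matrix metalloproteinase, had 46.0 ± 22.6 and 14.2 ± 15.3 (adjusted *P* = 0.466 by limma).

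The keratocyte list shares most of its called genes with the collagen list. Of 20 keratocyte genes tested, 6 fell (*Col1a1*, *Col1a2*, *Col3a1*, *Col5a2*, *Fstl1* and *Sparc*), 19 had a value below 0, and the median was −1.90. The summed normalized count of the list was 5846, 6399, 5988, 2644 and 4912 in the young libraries and 1222, 2027, 1074, 1420 and 1747 at 18 months. The proteoglycans *Kera* and *Lum*, which define the keratocyte, were not called. *Kera* had 42.8, 19.5, 36.5, 14.8 and 38.9 against 7.32, 91.5, 34.9, 9.86 and 0, with 18-month replicate 2 the highest of all 10 libraries. *Lum* had 72.7 ± 25.1 and 48.8 ± 36.6. The 4 keratocyte genes outside the collagen and matrix lists had a median of −0.63, and the 13 collagens outside the keratocyte list a median of −0.73; none of these genes was called. The part of stromal cells in the fall of the collagens was not tested.

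**Figure D4:**
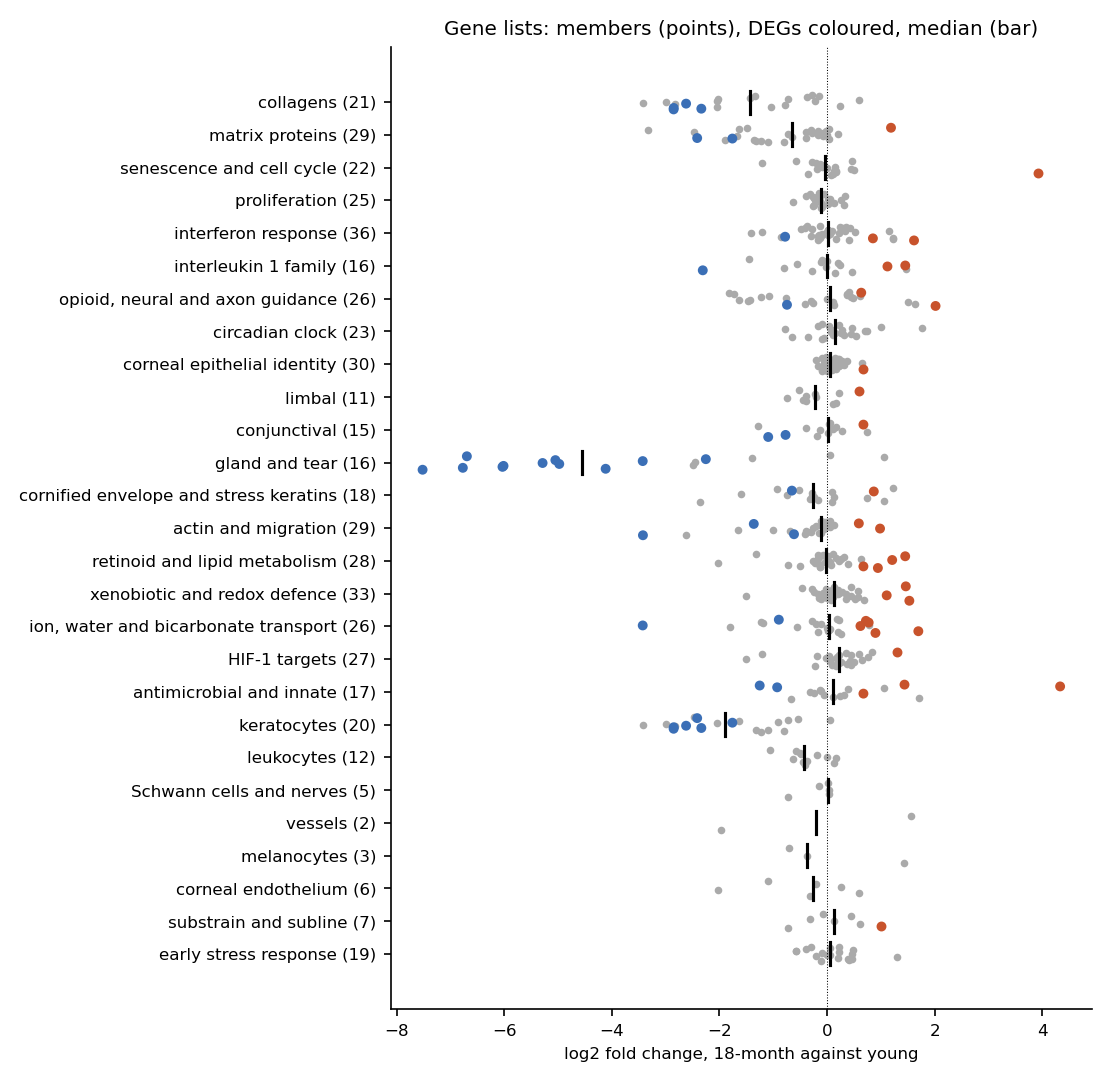
Log2 fold change at 18 months against the young group (horizontal axis) of each tested member of 27 gene lists, with the number tested in parentheses. Coloured points are DEGs and bars are medians. The gland (−4.54), keratocyte (−1.90) and collagen (−1.43) lists lie lowest, and most others have a median near 0.

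The other large falls were in genes outside these lists. *Igf2bp1*, an RNA-binding protein of fetal tissues, had 24.1, 33.7, 15.5, 17.0 and 28.5 in the young libraries and 0 reads in the 5 18-month libraries, at least 7.84-fold lower against 3 reads per library. Its call was kept in 3 of the 10 fits that left out 1 library (adjusted *P* up to 0.143, without young replicate 2). *Smarca5-ps*, a pseudogene copy of a chromatin remodeler whose reads are uncertain, had 35.1, 42.0, 55.7, 34.97 and 21.8 against 0, 0, 0.794, 1.79 and 0, and was not called by voom (adjusted *P* = 0.0622). *Apela*, the peptide ligand of the apelin receptor, had 155, 99.7, 78.5, 45.6 and 40.8 against 3.66, 0, 3.18, 7.17 and 8.70 (log2 fold change −4.12, SE 0.691, adjusted *P* = 0.0014 by limma). In these 3 genes every young library was above every 18-month library.

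*Adamtsl1*, a secreted matrix protein, had 33.8 to 66.4 in the young group and 0 to 24.6 at 18 months, the highest being replicate 2 (log2 fold change −3.42, adjusted *P* = 0.0109 by limma and 0.055 by voom). *St3gal5*, the GM3 ganglioside synthase, fell from 263 ± 40.0 to 99.2 ± 43.8. *Ccdc141* fell from 136 ± 17.9 to 47.9 ± 13.7, *Pcdh7*, a protocadherin, from 628 ± 110 to 357 ± 55.6, and *Pam*, which amidates neuropeptides, from 575 ± 98.4 to 359 ± 55.7. *Nt5e*, the ectoenzyme CD73 that makes adenosine, had 731, 619, 754, 344 and 697 against 249, 292, 236, 240 and 401. Its groups overlapped by young replicate 4. *Pam* and *Nt5e* each kept the call in 2 of the 10 fits that left out 1 library (adjusted *P* up to 0.169 without young replicate 1 and 0.106 without young replicate 5).

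Among genes of senescence and the cell cycle, 1 of 22 rose and 0 fell (4.55%, against 0.671% of all genes tested), with a median of −0.04. *Cdkn2a* (chr4:89274473-89294619), which encodes the cell cycle inhibitors p16 and p19Arf from different first exons, had 0, 0.749, 3.65, 1.06 and 3.79 in the young libraries and 35.4, 61.0, 27.0, 24.2 and 38.7 at 18 months. The lowest 18-month library was above the highest young library. The log2 fold change was 3.92 (SE 0.559, adjusted *P* = 0.000234 by limma), and the call was kept in all 10 fits that left out 1 library and by voom. Reads from the 3′ end lie in the shared last exon and do not tell the 2 products apart. *Cdkn1a*, which encodes p21, had 3238 ± 373 and 3466 ± 764 (log2 fold change 0.08, adjusted *P* = 0.977 by limma). *Ccnd1*, cyclin D1, had 4175 ± 667 and 5893 ± 636 without overlap but missed the threshold (adjusted *P* = 0.0535 by limma), and *Igfbp2*, an insulin-like growth factor binding protein, had 199 ± 56.2 and 87.4 ± 27.8 (adjusted *P* = 0.177).

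Proliferation genes were not called. Of 25 tested, 0 rose and 0 fell by limma or had an unadjusted *P* value below 0.05, and the median was −0.11. *Mki67*, the marker of cycling cells, had 1150 ± 375 in the young group and 1056 ± 308 at 18 months (log2 fold change −0.11, SE 0.194).

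The other large rises were in single genes of varied function. *Gp2*, a glycoprotein that binds bacteria on antigen-sampling epithelial cells, had 5.48, 1.499, 0, 12.7 and 0.949 in the young libraries and 72.0, 44.6, 21.4, 126 and 150 at 18 months. The groups did not overlap (log2 fold change 4.33, SE 0.885, adjusted *P* = 0.00922 by limma), but the gene was not called by voom (adjusted *P* = 0.304). *Lncppara*, a noncoding RNA, had 41.7, 15.0, 1.83, 1.06 and 1.90 against 73.2, 58.6, 47.6, 59.1 and 47.4 (log2 fold change 3.15, adjusted *P* = 0.0523 by voom). *Etv1*, an ETS transcription factor, had 0, 5.25, 5.48, 31.8 and 0 against 23.2, 28.2, 31.0, 38.5 and 51.3. Young replicate 4 lay among the 18-month libraries, and the *Etv1* call was kept in 1 of the 10 fits, the one without that library. Without young replicate 5 the adjusted *P* was 0.16. *Etv1* was not called by voom (adjusted *P* = 0.197).

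**Figure D5:**
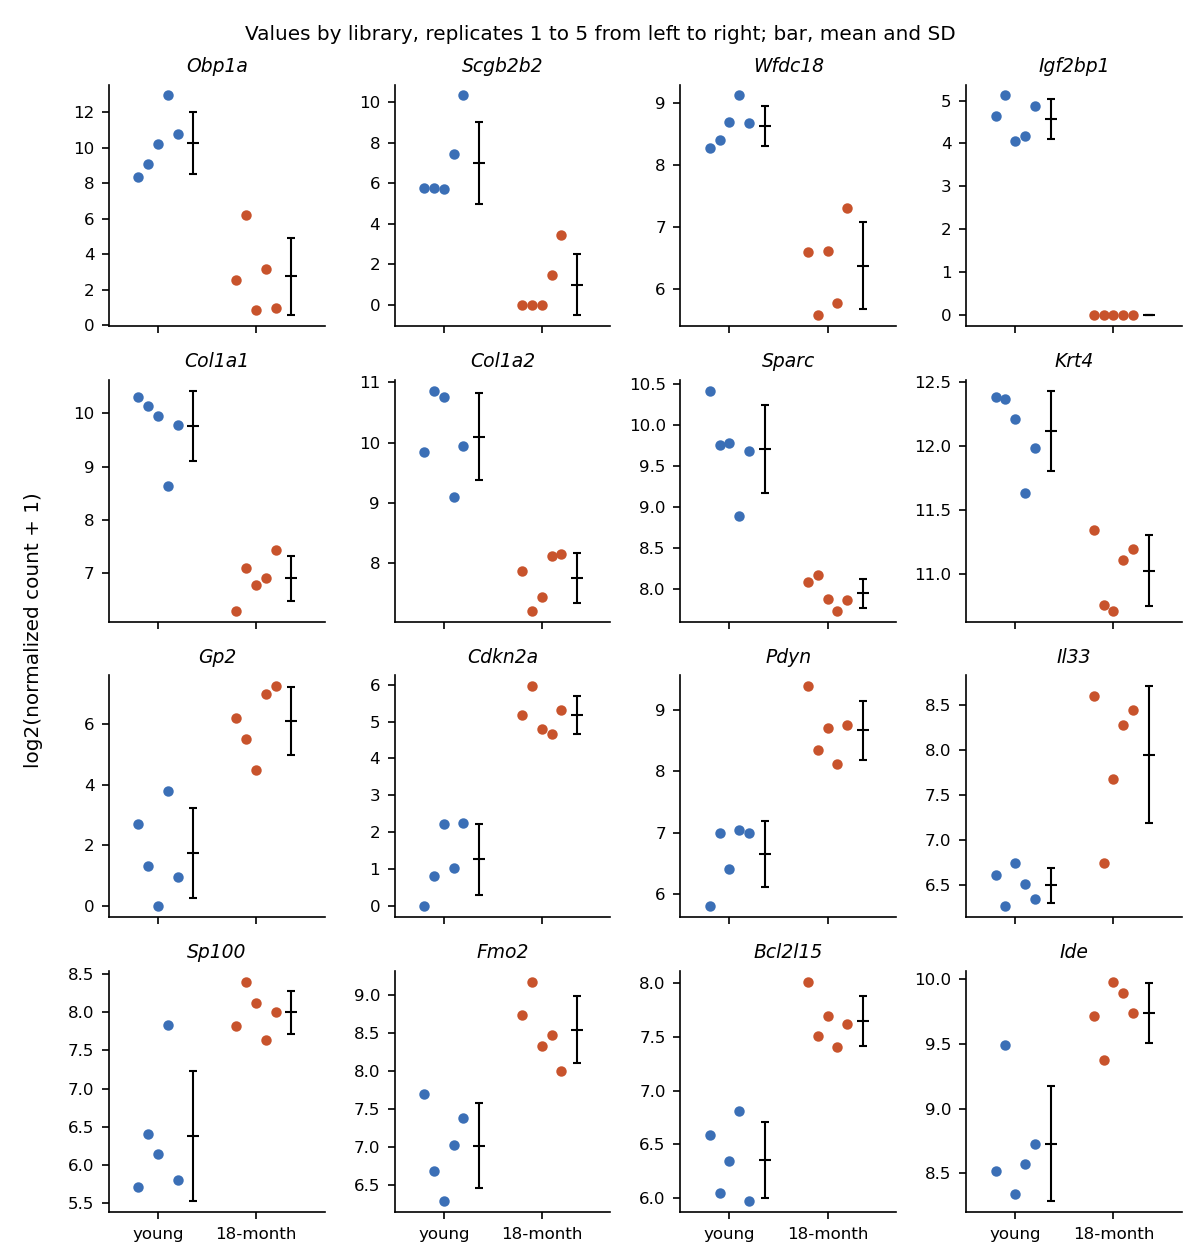
Log2(normalized count + 1) of 16 DEGs in each library, replicates 1 to 5 from left to right in each group, with the mean and SD of 5 libraries beside them. Vertical axes differ between panels and most do not start at 0. *Il33*, *Sp100* and *Ide* overlap by 1 library, and the other 13 do not overlap.

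Of the opioid and neural genes, *Pdyn* had the largest rise. *Pdyn* (chr2:129686549-129699938) encodes prodynorphin, the precursor of the dynorphins, which act on the kappa opioid receptor. It had 54.8, 127, 84.0, 131 and 126 in the young libraries and 668, 326, 419, 276 and 433 at 18 months, a ratio of means of 4.06 (log2 fold change 2.02, SE 0.257, adjusted *P* = 6.84e-05 by limma). The lowest 18-month library (276) was well above the highest young library (131). *Oprk1*, the kappa opioid receptor, had 0 reads in all 10 libraries, which allows up to 3 reads in each. *Penk*, another opioid precursor, had at most 9.87 and was below the minimum for testing. *Ogfrl1*, a relative of the opioid growth factor receptor, fell from 355 ± 56.2 to 211 ± 27.3 and kept its call in 2 of the 10 fits that left out 1 library (adjusted *P* up to 0.162, without young replicate 2), whereas *Ogfr* itself had 164 ± 27.6 and 181 ± 43.5. *Ptprd*, a synapse-organizing receptor phosphatase, rose from 621 ± 55.9 to 970 ± 133. Of the 26 genes of the opioid, neural and axon guidance list tested, 2 rose and 1 fell (11.5%, against 0.671% of all genes tested), with a median of 0.05. Changes went both ways, with 13 genes above 0 and 13 below. Of the 26, 8 did not overlap between the ages (2.07% of all genes tested), and 12 had an unadjusted limma *P* value below 0.05 (7.27% of all). *Chrm3*, the muscarinic receptor M3, had 15.5 ± 4.57 and 51.7 ± 20.3 without overlap and was not called (adjusted *P* = 0.0682 by limma). Markers of Schwann cells and nerves were not called in either direction (5 tested).

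The interleukin 1 family had 2 genes that rose and 1 that fell of 16 tested (18.8%, against 0.671% of all genes tested). The median was −0.01. *Il33*, an alarmin stored in the nucleus of barrier epithelia, had 96.5, 75.7, 106, 90.1 and 79.7 in the young libraries and 385, 106, 203, 309 and 346 at 18 months. Replicate 2 was within the young range and the other 4 were well above it (log2 fold change 1.45, SE 0.281, adjusted *P* = 0.00524 by limma). *Il1rl1*, the receptor of IL-33, had at most 7.59 in any library and was not tested. *Il18r1*, the receptor of interleukin 18, had 89.9, 52.5, 53.0, 46.6 and 89.2 against 126, 212, 155, 131 and 98.6. *Il1r2*, the decoy receptor of interleukin 1, had 184, 129, 122, 34.97 and 116 against 15.9, 11.7, 18.3, 37.6 and 25.1, with young replicate 4 among the 18-month libraries. The ligand *Il18* had 912 ± 174 and 887 ± 65.9. *Il18r1* and *Il1r2* lie 340.3 kb apart on chromosome 1 and moved in opposite directions, and each kept its call in 3 of the 10 fits that left out 1 library, with the highest adjusted *P* of 0.149 without young replicate 4 and 0.0914 without young replicate 1. Neither was called by voom (adjusted *P* = 0.0566 and 0.0668).

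Interferon-response genes moved both ways. Of 36 tested, 2 rose (*Sp100*, *Trim30a*), 1 fell (*Ifit1bl1*), and the median was 0.01 (8.33% called, against 0.671% of all genes tested). Interferon-stimulated genes are switched on through a response element bound by IRF factors, and the 120 bases before the RefSeq start of the gene that fell and of one that rose are shown because both hold its letters. The sequences are 5′ to 3′ on the minus strand of GRCm38.p6, with the letters searched, GAAA followed by any 2 bases and GAAA, in capitals where they or their reverse complement occur.

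*Ifit1bl1* (chr19:34601969-34602088): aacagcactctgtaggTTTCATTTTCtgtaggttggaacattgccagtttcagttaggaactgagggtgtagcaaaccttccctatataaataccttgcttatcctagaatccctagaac

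*Trim30a* (chr7:104465194-104465313): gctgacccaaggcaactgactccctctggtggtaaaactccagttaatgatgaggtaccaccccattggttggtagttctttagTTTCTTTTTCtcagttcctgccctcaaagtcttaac

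RefSeq gives 2 starts for each gene, and the first is shown. The first transcribed bases at the *Trim30a* start shown were found in an annotated transcript of the gene, and those at either *Ifit1bl1* start were not. The *Ifit1bl1* stretch shown also lies inside the span of the gene (chr19:34592888-34662981), so its place as a promoter is uncertain. The match ended 95 bases before this start in *Ifit1bl1* and 27 bases before it in *Trim30a*. Before the second start, *Ifit1bl1* had a match that ended at 14 bases and *Trim30a* had none. The letters were present in 1.22% of all 32851 promoters over this length, and not in the same window before either start of *Sp100*. *Ifit1bl1*, a member of the IFIT family of RNA-binding proteins, had 8319, 9364, 7131, 8025 and 7713 in the young libraries and 5361, 3353, 6226, 4651 and 4442 at 18 months, without overlap (log2 fold change −0.78, SE 0.126, adjusted *P* = 0.00104 by limma). *Trim30a*, a TRIM family protein that dampens Toll-like receptor signaling, had 295, 489, 325, 647 and 301 against 607, 909, 668, 600 and 797. *Sp100*, a component of nuclear bodies, had 51.5, 83.9, 69.4, 227 and 55.0 against 226, 337, 276, 199 and 255. In both risers the overlap came from young replicate 4. *Sp100* was called in all 10 fits that left out 1 library and *Trim30a* in 5 of them (adjusted *P* up to 0.106, without young replicate 5). Of the classic response genes, *Ifit1* had 131 ± 99.3 and 60.01 ± 17.9, *Ifit3* 336 ± 127 and 274 ± 119, and *Irf7* 271 ± 66.5 and 241 ± 41.8, and none of these 3 was called. All IFIT and TRIM genes named here have close relatives, and their counts are uncertain where copies share sequence.

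Genes of retinoid and lipid metabolism were called in 1 direction. Of 28 tested, 4 rose and 0 fell (14.3%, against 0.671% of all genes tested), with a median of −0.01 over the list. *Aldh1a1*, which oxidizes retinaldehyde to retinoic acid and is also a corneal crystallin, had 953, 1150, 1005, 1477 and 1513 against 1779, 2387, 1788, 2029 and 1668. *Vldlr*, a receptor for triglyceride-rich lipoproteins, rose from 65.8 ± 26.2 to 178 ± 56.2, and *Cyp4a12a*, a fatty acid hydroxylase with a near-identical copy, from 332 ± 123 to 755 ± 241. The calls of *Aldh1a1* and *Cyp4a12a* were kept in 5 and 7 of the 10 fits that left out 1 library (adjusted *P* up to 0.0923 without 18-month replicate 2 and 0.0602 without 18-month replicate 3). *Aldh1a1* was the only 1 of 30 corneal epithelial identity genes called. *Aldh3a1*, the main crystallin of the cornea, had 82450 ± 17800 and 91420 ± 8120.

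Xenobiotic and redox defence genes were likewise called upward only, 3 of 33 (9.09%, against 0.671% of all genes tested), with a median of 0.14. *Fmo2*, a flavin monooxygenase, had 206, 102, 76.7, 129 and 166 against 426, 578, 321, 354 and 255 (log2 fold change 1.53, SE 0.242, adjusted *P* = 0.000792 by limma). *Upb1*, the last enzyme of pyrimidine breakdown, had 72.4, 86.9, 29.2, 68.9 and 90.1 against 184, 155, 212, 195 and 163. *Gstt2*, a glutathione transferase, rose from 64.5 ± 15.1 to 139 ± 32.1. In each of the 3 genes the groups did not overlap. *Upb1* and *Gstt2* lie 390.2 kb apart on chromosome 10.

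Of 26 ion, water and bicarbonate transport genes, 5 rose and 2 fell (26.9%, against 0.671% of all genes tested), with a median of 0.03. *Fxyd4*, a regulator of the sodium pump, had 61.4, 22.5, 74.9, 31.8 and 46.5 against 100.0, 202, 191, 140 and 111 (ratio of means 3.14, adjusted *P* = 0.00454 by limma). *Atp1b1*, the beta subunit of the sodium pump, rose from 141 ± 20.7 to 264 ± 42.4. *Slc25a4*, the mitochondrial exchanger of ADP and ATP, rose from 1719 ± 235 to 2835 ± 364, *Car5b*, a mitochondrial carbonic anhydrase, from 725 ± 92.7 to 1112 ± 89.3, and *Slc16a11*, a monocarboxylate transporter, from 831 ± 218 to 1394 ± 222. *Car6* and *Emb*, a chaperone of monocarboxylate transporters (694 ± 152 and 369 ± 59.1), fell. *Atp1b1* kept its call in 8 of the 10 fits that left out 1 library, losing it without young replicate 3 or 18-month replicate 4 (adjusted *P* up to 0.0686), and *Slc16a11* kept it in 4 (up to 0.15, without young replicate 5).

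Among 15 conjunctival genes, 2 fell and 1 rose, with a median of 0.02. *Krt4*, a keratin of conjunctiva and other wet surfaces, had 5337, 5281, 4751, 3170 and 4053 in the young libraries and 2600, 1726, 1675, 2201 and 2346 at 18 months, without overlap (log2 fold change −1.09, SE 0.168, adjusted *P* = 0.000637 by limma). *Krt19*, a keratin of conjunctiva and limbus, had 1395, 1844, 1150, 815 and 1117 against 989, 639, 573, 723 and 710, with overlap, and kept its call in 2 of the 10 fits (adjusted *P* up to 0.17, without young replicate 2). *Wfdc2*, a secreted protease inhibitor, rose from 1274 ± 228 to 2019 ± 194. The summed normalized count of the conjunctival list ran from 67740 to 92190 in the young group and from 68500 to 80640 at 18 months, and the defining goblet cell mucin *Muc5ac* had at most 29.98 in any library and was not tested. How much conjunctiva each scrape took up was not tested.

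Of 11 limbal genes, *Sox9*, a transcription factor of progenitor cells, rose from 778 ± 86.2 to 1183 ± 158 without overlap. It kept its call in 6 of the 10 fits that left out 1 library (adjusted *P* up to 0.0906, without 18-month replicate 3). Among 18 cornified envelope and stress keratin genes, *Fam25c* rose from 646 ± 104 to 1188 ± 243 and *Stfa1*, a cysteine protease inhibitor with near-identical copies, fell from 707 ± 101 to 448 ± 49.3. The *Stfa1* call was kept in 2 of the 10 fits (up to 0.161, without young replicate 5). *Sprr1a*, a small proline-rich protein of squamous cells, had 85.5, 120, 251, 135 and 266 against 365, 263, 278, 383 and 370, with overlap, and was not called (log2 fold change 1.07, adjusted *P* = 0.107 by limma). The stress keratin *Krt75* had 228 ± 116 and 70.0 ± 20.3 without overlap and was not called (adjusted *P* = 0.0964 by limma).

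Of 29 actin and migration genes, 3 fell and 2 rose (17.2%, against 0.671% of all genes tested), with a median of −0.12. *Fscn1*, fascin, which bundles actin in cell protrusions, had 81.1, 94.4, 158, 206 and 83.5 against 25.6, 14.1, 3.97, 18.8 and 2.90 (log2 fold change −3.42, SE 0.68, adjusted *P* = 0.00674 by limma). *Arhgap29*, a GTPase-activating protein, fell from 190 ± 64.2 to 76.6 ± 31.8, and *Tagln2*, an actin-binding protein, from 1410 ± 238 to 926 ± 187. *Iqgap2*, a scaffold of the cytoskeleton, rose from 359 ± 68.1 to 707 ± 110 and *Sorbs2*, an adaptor of stress fibers, from 1168 ± 63.2 to 1773 ± 252. *Arhgap29* and *Tagln2* kept their calls in 7 and 2 of the 10 fits that left out 1 library (adjusted *P* up to 0.0858 without young replicate 5 and 0.193 without 18-month replicate 4).

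Innate defence genes split, with 3 rises and 2 falls among 17 tested (29.4%, against 0.671% of all genes tested). Besides *Gp2* and *Wfdc2*, *Ptpn22*, a phosphatase of immune receptor signaling, rose, and *Clec2g*, a C-type lectin (444 ± 56.4 to 198 ± 86.2), and *Chit1*, a chitinase (832 ± 187 to 432 ± 55.0), fell. *Ptpn22* had 72.4, 91.4, 71.2, 58.3 and 93.9 in the young libraries and 215, 144, 184, 227 and 306 at 18 months. Its neighbour *Bcl2l15*, a BCL2-like gene, had 95.4, 65.2, 80.4, 111 and 61.7 against 257, 181, 206, 168 and 195. *Bcl2l15* (chr3:103831036-103854618) ends 2.0 kb before *Ptpn22* (chr3:103856575-103912252) begins, and both rose without overlap by 1.29 and 1.44 on the log2 scale. Leukocyte markers were not called (0 of 12 by limma, with 1 at an unadjusted *P* value below 0.05). Of the 12, 10 had a log2 fold change below 0 and 2 above, with a median of −0.43. *Ptprc*, the pan-leukocyte marker CD45, had 24.0 ± 12.3 and 25.3 ± 22.9. There were 9 pairs of DEGs within 500 kb of each other, and 8 of them moved in the same direction, *Sorbs2* and *Slc25a4* on chromosome 8 included (379.3 kb apart). The 8 also include every pair among the related *Obp1a*, *Gm5938* and *Obp1b*, and the secretoglobins *Scgb1b2* and *Scgb2b2*, so the pairs are not independent. The share of such pairs over all genes tested was not computed, so the count shows no effect of position.

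Among HIF-1 targets, 1 of 27 rose and 0 fell (3.7%, against 0.671% of all genes tested), with a median of 0.22. Of the 27, 22 had a log2 fold change above 0 and 5 below, whereas 5706 of all 11329 genes tested were below 0. An unadjusted limma *P* value below 0.05 was found for 7 of the 27 (7.27% of all genes tested). The list was not tested as a set. The summed normalized count of the list, in which abundant genes weigh most, was 17350 to 21490 in the young group. At 18 months it was 22380 to 24160, without overlap. The sums of the collagen, matrix protein and keratocyte lists did not overlap either, and were lower at 18 months. *Cp*, the copper carrier ceruloplasmin, had 70.2, 80.2, 55.7, 78.4 and 37.0 against 134, 198, 101, 89.6 and 361. Its call was kept in 2 of the 10 fits (adjusted *P* up to 0.208, without 18-month replicate 5), and voom did not call it (adjusted *P* = 0.138). *Ulk1*, a kinase that starts autophagy, had 374 ± 109 and 467 ± 91.5, and *Serpinf1*, which encodes pigment epithelium-derived factor, had a log2 fold change of −1.64, and neither was called. Of 23 circadian clock genes, 0 were called by limma and 3 had an unadjusted *P* value below 0.05, with a median of 0.15. Of 19 early stress genes, 0 were called and 4 had an unadjusted *P* value below 0.05; *Egr1*, an immediate early gene, was the highest at a log2 fold change of 1.30 (adjusted *P* = 0.3).

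Several further DEGs rose without overlap. *Prnp*, the prion protein, rose from 257 ± 65.4 to 459 ± 45.3, *Ddah1*, which breaks down an inhibitor of nitric oxide synthase, from 460 ± 91.3 to 858 ± 133, and *Adam28*, a membrane metalloprotease, from 392 ± 30.4 to 725 ± 125. *Tmprss11d*, an airway-type serine protease, rose from 1734 ± 169 to 2727 ± 404, and *Rnf149*, an E3 ubiquitin ligase, from 1039 ± 55.3 to 1470 ± 94.6 (call lost without 18-month replicate 3 or 4, adjusted *P* up to 0.0654). *Lrba*, a vesicle trafficking protein, had 549, 501, 494, 872 and 309 against 857, 901, 875, 976 and 906, with young replicate 4 within the 18-month range, and its call was lost without young replicate 5 (adjusted *P* = 0.0604).

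*Ide* (chr19:37268743-37334544), which encodes insulin-degrading enzyme, lies in a segment that is known to vary in copy number within the C57BL/6J strain. It had 365, 717, 324, 380 and 422 in the young libraries and 839, 664, 1007, 948 and 851 at 18 months. Young replicate 2 was above 18-month replicate 2 and the other 4 young libraries were well below. *Fgfbp3*, in the same segment, had 66.9, 169, 117, 96.4 and 90.1 against 144, 162, 156, 179 and 154, and young replicate 2 was again the highest of the young libraries (log2 fold change 0.62, not called). At 12 months, the mean of *Ide* was 455 ± 132, and at 24 months 855 ± 69.3. The genotype of the mice at this segment was not tested.

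Several list members had large differences that did not pass the threshold. *Serpine2*, a protease inhibitor of the matrix, had 22.8 ± 10.5 in the young group and 1.56 ± 1.49 at 18 months (adjusted *P* = 0.106 by limma). *Col6a2*, the partner of *Col6a1*, had 37.8 ± 12.4 and 6.55 ± 8.56, and *Cdsn*, which encodes a desmosomal glue of cornified cells, had a log2 fold change of −2.36. *Cald1*, an actin and calmodulin binder, had 32.8 ± 8.22 and 5.56 ± 3.93, *Clic6*, a chloride channel family member, 50.8 ± 15.7 and 13.9 ± 4.23, and *Flrt3*, an axon guidance protein, 44.7 ± 12.3 and 12.1 ± 4.34. In these 6 genes every young library was above every 18-month library, yet the adjusted *P* ran from 0.0703 (*Col6a2*) to 0.422 (*Flrt3*).

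The other list members with the largest differences overlapped between the ages and were not called. Lower values at 18 months were found for *Rarb*, a retinoic acid receptor (log2 fold change −2.03), *Col8a2*, a collagen of the endothelial basement membrane (−2.03), and *Kdr*, a vessel marker (−1.98). The same held for *Oas2*, an interferon-induced enzyme (−1.42), *Clca3b* (−1.28), *Aqp1* (−1.09), *Cd52* (−1.07), *Krt17*, a stress keratin (−0.75), and *Cd74*, the invariant chain (−0.63). Higher values were found for *Ciart*, a clock repressor (1.76), *Flt1*, a vessel marker (1.56), *Il1rap*, a shared interleukin 1 coreceptor (1.47), *Pmel*, a melanosome protein (1.43), *Bhlhe41*, a clock repressor (1.00), and *Tfap2b*, a corneal transcription factor (0.65). *Lcn2*, an iron-scavenging lipocalin, had 11.5 ± 13.2 and 52.9 ± 80.6, with an SD above the mean in both groups. Smaller lists gave no calls by limma, with 2 vessel, 3 melanocyte and 6 corneal endothelium genes tested and 1, 0 and 2 of them at an unadjusted *P* value below 0.05. Of 7 genes that differ among C57BL/6 substrains and sublines, *Ide* was the only one called.

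The neighbouring ages were compared directly in the same fit, since the comparisons with the young group share its libraries. Of the 11329 genes, 0 were called between 18 and 12 months and 0 between 24 and 18 months by limma (0.0% in each case), and 0 by voom. At an unadjusted *P* value below 0.05 there were 841 genes (7.42%) and 609 genes (5.38%). Some DEGs had 12-month means between the young and 18-month means, with the contrast of 18 against 12 months short of the threshold. *Cdkn2a* averaged 1.85, 13.2, 37.2 and 26.0 in the young, 12-month, 18-month and 24-month groups (18 against 12 months, log2 difference 1.45, adjusted *P* = 0.639 by limma). *Gp2* had 4.13, 17.3, 82.8 and 43.8, *Il33* had 89.6, 136, 270 and 265, and *Apela* had 83.8, 23.9, 4.54 and 2.40. *Pdyn* had 105, 381, 425 and 413 (18 against 12 months, log2 difference 0.13, adjusted *P* = 0.914). *Wfdc18* was lower at 12 months (21.1) than at 18 months (90.1), with a log2 difference of 2.26 and an adjusted *P* of 0.143 by limma, the same adjusted *P* as for *Ide*.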

How the data were processed

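Per the authors' methods, the corneal epithelium was scraped and libraries were primed with oligo-dT using a Lexogen kit. The submitters' processing notes name cutadapt, FastQC, STAR, HTSeq, DESeq2 and the build GRCm38 (mm10). The authors deposited, per library, log2 values of the normalized count plus 1. The tables also hold the authors' own fold changes and p-values, which were not used. The deposited values were turned back into whole reads (100% whole, tolerance 0.01).

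One limma model (limma 3.58.1, R 4.3.3) with age as the factor was fitted to the log2 values of all 20 libraries, letting the prior variance follow expression level, for genes averaging 10 or more normalized counts (8.2 to 13.3 reads depending on the library) over the 10 libraries, and the contrast of 18 months against the young group was taken. Single genes were also tested with a two-sided exact permutation test over all 252 splits (Python 3.11.15, scipy 1.17.1). The alternatives were quantile normalization, median centring, other filters and fold thresholds, pseudocounts of 0.1 and 10 in place of 1, only the 2 groups, the replicate number as a block, voom on the recovered reads, and leaving out each library. Leaving out young replicate 4 and 18-month replicate 2 together was chosen after seeing the data. The fits were tested on simulated data. Values of ± are the SD over 5 libraries. Depth limits genes near the minimum, and *P* values measure only the spread between these mice.

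The genes named were the 8 largest rises and falls without overlap, every called gene of 27 gene lists, the members of each list with the largest changes or needed to state its role, and the genes of the quantitative PCR of the study. The remaining DEGs, and genes named for position or for 1 library, were picked with their values in view. The comparison and the lists were chosen with earlier results of these data known, so lists were described by counts and medians without a test. Promoters came from RefSeq for 60 of the 76 DEGs and coordinates for 75. Single values of a few genes are not reported here. The functional measurements of the study were not analysed here.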

Additional observations from a re-analysis of the deposited data

Results flagged for a closer look

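In the 152 groups of 5 libraries of the 76 DEGs, 8 held a library set apart by Dixon's ratio on the log2 values (critical value 0.71). Chance flags about 1 in 20 groups. Young replicate 4 was low in *Il1r2* (normalized count 34.97 against 116 to 184 in the others) and in *Nt5e* (344 against 619 to 754). In 18-month replicate 2, *Mup4* was high (30.5 against 0) and *Ccdc141* low (24.6 against 47.6 to 59.6). Young replicate 3 was low in *Upb1* (29.2 against 68.9 to 90.1) and high in *Car5b* (888 against 660 to 703). *Stfa1* was high in young replicate 5 (883 against 639 to 694) and *Gstt2* in 18-month replicate 5 (196 against 122 to 134). The causes were not tested.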

How the results depend on the processing

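The count of DEGs ran from 61 to 69 when 1 library was left out, from 62 to 77 under the other planned settings, and was 59 without both young replicate 4 and 18-month replicate 2. No called gene changed direction. Of 1368 values of single DEGs under the alternatives, 1137 kept their call, and voom (18 genes), a pseudocount of 0.1 (17) and a fit of only the 2 groups (13) lost the most. When genes were filtered over all 20 libraries, 1 gene (*Etohd2*, named after its value was seen) was called between 18 and 12 months instead of 0. With a minimum mean of 50, the list medians were −0.50 for collagens, −0.29 for matrix proteins, 0.25 for neural genes and 0.27 for corneal endothelium. Leaving out 1 library moved the median by more than its SD for collagens (−1.96 to −1.23), limbal genes (−0.41 to −0.11), conjunctival genes (−0.18 to 0.07), actin genes (−0.18 to −0.10) and antimicrobial genes (−0.19 to 0.36), and it was −0.15 for conjunctival genes without both libraries. The replicate number as a block gave 72 DEGs and lost the call of 6 of the 76, but libraries with the same number did not deviate together (correlations −0.09 to 0.052), so the numbers do not pair the mice.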
